A study of Mus musculus with 8 samples.

Results

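The genes described here encode receptors of lymphocytes that bind nectins and nectin-like molecules, and 2 of the ligands. The members were chosen by gene symbol as Tigit, Cd96, Cd226, Pvrig and Crtam (receptors) and Pvr and Cadm1 (ligands). Of these 7 genes, 6 had a row among the 45706 genes of the tables, and Pvrig, for which neither the symbol nor the reference identifier matched a row, was not analysed here. All 6 passed the filter on low counts, which left 14006 genes for testing. Expression was compared between natural killer (NK) cells titled spNK (splenic, 4 libraries) and tuNK (tumour-infiltrating, 4 libraries). The mice were BALB/c and carried under the skin a tumour of CT26_β2m-/- cells (CT26_b2m-/- in the sample labels), a mouse colorectal carcinoma line without β2-microglobulin and so without MHC class I at its surface. The question is what sets NK cells inside such a tumour apart from splenic ones. Both tissues were digested with enzymes and sorted, and only the tumour cells were first enriched on a density gradient. The sources used here give neither the age or number of the mice, nor the markers of the sort, nor whether the spleens came from the tumour-bearing mice, nor whether each library had its own mouse. The spread behind each p-value is therefore that of these 8 libraries and may be technical. In each of the 8 samples the tissue tag and the source name give the opposite tissue to the title. Here groups and directions follow the title, and the other reading would turn every direction around.

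The family works as a balance between receptors that share ligands. CD155, the product of Pvr, and CD112, the product of Nectin2, are bound by the activating receptor CD226 (DNAM-1) and by the inhibitory receptor TIGIT, which binds CD155 more tightly and carries inhibitory tyrosine motifs in its tail. CD96 also binds CD155 and has been described as restraining mouse NK cells, CRTAM is an activating receptor for CADM1 on other cells, and PVRIG is an inhibitory receptor for CD112. Tumour cells often carry CD155, which is why this axis is studied in tumour immunity.

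Library totals ran from 38745733 to 53886933 estimated counts. The NK receptor gene Ncr1, which encodes NKp46, was present in all libraries at 1175 to 1648 in spNK and 258 to 371 in tuNK, in CPM (each count per 1e+06 of the library total, scaled by TMM). Of 16 NK cell marker genes, all 16 were lower in tuNK by the edgeR quasi-likelihood test, as were 31 of 32 genes expressed across leukocytes, whose median was -1.81 on the log2 scale (28.5% of spNK). Markers of fibroblasts and mesenchymal tumour cells had a sum of 96.7 to 161 CPM in spNK and 3314 to 5018 CPM in tuNK, and 15 of 15 tested were higher. B cell and platelet markers summed to 268 to 1298 and 404 to 702 CPM in spNK, and to 24.5 to 38.3 and 46.3 to 121 CPM in tuNK. In such bulk libraries, fewer NK cells and less RNA of a gene per NK cell cannot be told apart. The log2 fold change of each member is therefore given also after scaling to the 32 leukocyte genes, called leukocyte-scaled, which shifted the median of all genes by 1.78 on the log2 scale, against a shift of -0.17 with library size alone. By that scaling 6 NK cell markers were lower, 3 were higher and 7 were not called. Over all genes tested, 34% were called lower and 35.6% higher with TMM, and 5.75% lower and 78.9% higher leukocyte-scaled.

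Receptor and ligand genes moved in both directions. With edgeR's quasi-likelihood test, Benjamini-Hochberg adjusted over all genes tested, and a threshold of 0.05, all 6 members differed, Tigit, Pvr and Cadm1 being higher in tuNK and Cd96, Cd226 and Crtam lower. The same test called 69.6% of all genes tested, 35.6% higher and 34% lower, so a call as such is common in these data. The groups did not overlap for any of the 6, as for 67.1% of all genes. Leukocyte-scaled, Tigit, Pvr and Cadm1 were called higher too, Cd96 turned higher, and Cd226 and Crtam were not called. As that scaling raises the median of all genes by 1.78, it is no separate check of genes already higher by TMM. Of all genes, 84.7% were then called, 78.9% higher and 5.75% lower. With the replicate number as a block the members' calls were 3 higher and 3 lower as before, beside 68.2% of all genes called, 35.2% higher and 33.1% lower.

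Tigit (ENSMUSG00000071552, chromosome 16, 43648867 to 43664146 on GRCm38, minus strand) encodes the inhibitory receptor. Its level was 17.3, 15.6, 15.5 and 17.4 CPM in spNK 1 to 4 and 47.4, 60.5, 57.9 and 59.9 CPM in tuNK 1 to 4. The spNK libraries lay close together, and the lowest tuNK library, tuNK 1, was still far above the highest spNK library. The log2 fold change was 1.78 ± 0.11 (SE), a 3.43-fold higher level (edgeR adjusted p = 2.04e-07, higher in 4 of 4 libraries). Leukocyte-scaled, it was 3.55 ± 0.19.

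Cd96 (ENSMUSG00000022657, chromosome 16, 46035657 to 46120251, minus strand) encodes a receptor for CD155 that is found on NK and T cells. It stood at 84.6, 88.0, 65.5 and 70.1 CPM in spNK 1 to 4 and at 26.8, 33.3, 36.2 and 38.9 CPM in tuNK 1 to 4. Every tuNK library was below every spNK library, with the spNK values the more widely spread. The log2 fold change was -1.19 ± 0.14, a 2.28-fold lower level (edgeR adjusted p = 2.05e-05), whereas the leukocyte-scaled value was 0.60 ± 0.19 and called higher (adjusted p = 0.00788).

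Only 2 of the 6 members, Tigit and Cd96, have a promoter entry in the RefSeq table used here (GRCm38.p6). Their start sites lie on the same strand of chromosome 16, the genes are 2.37 Mb apart, and their RNA moved in opposite directions with TMM scaling, so the 300 bases around each start (250 before and 50 after) are shown. Both windows were searched on both strands for a RUNX core (TGTGGT), an E-box (CANNTG), a T-box core (GGTGTG), an ETS core (AGGAAG) and an AP-1 site (TGANTCA), and matches are in capitals.
Tigit, chr16:43664135-43664434, minus strand: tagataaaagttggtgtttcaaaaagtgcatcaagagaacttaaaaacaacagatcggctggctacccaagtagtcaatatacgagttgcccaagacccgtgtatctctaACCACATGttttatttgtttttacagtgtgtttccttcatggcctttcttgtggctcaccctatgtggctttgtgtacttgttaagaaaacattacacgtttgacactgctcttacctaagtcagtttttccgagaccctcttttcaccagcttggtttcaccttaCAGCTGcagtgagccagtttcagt
Cd96, chr16:46120199-46120498, minus strand: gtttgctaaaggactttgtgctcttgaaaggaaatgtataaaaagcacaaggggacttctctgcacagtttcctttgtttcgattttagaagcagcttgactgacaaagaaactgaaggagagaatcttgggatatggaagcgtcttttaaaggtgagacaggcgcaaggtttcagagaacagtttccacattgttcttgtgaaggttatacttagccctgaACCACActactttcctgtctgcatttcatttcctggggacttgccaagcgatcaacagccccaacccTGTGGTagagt
The Tigit window held 1 RUNX core, which overlaps the first of its 2 E-boxes, and the Cd96 window held 2 RUNX cores and no E-box. Of 32851 such windows, 16.8% held the RUNX core and 72.3% an E-box. The T-box core (19.0% of windows), the ETS core (35.4%) and the AP-1 site (7.81%) matched in neither window. These are letter matches only.

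Cd226 (ENSMUSG00000034028, chromosome 18, 89176967 to 89272229, plus strand) encodes the activating counterpart of TIGIT. Its levels were 60.9, 54.4, 54.8 and 67.9 CPM in spNK 1 to 4 and 15.5, 25.4, 16.7 and 19.8 CPM in tuNK 1 to 4. The highest tuNK library, tuNK 2, remained well below the lowest spNK library. The log2 fold change of -1.62 ± 0.16 was a 3.08-fold lower level (edgeR adjusted p = 5.32e-06), and the leukocyte-scaled value was 0.12 ± 0.18 (adjusted p = 0.517). Platelets also express CD226, and 7 of the 8 platelet and megakaryocyte markers were lower in tuNK, beside 34% of all genes. Pf4, a defining platelet gene, ran from 75.3 to 135 CPM in spNK and was at 0 in 3 tuNK libraries. The list as a whole still summed to 46.3 to 121 CPM in tuNK, with 2 of its 8 genes at 0 in all tuNK libraries. The part of platelet RNA in the Cd226 result was not tested.

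Crtam (ENSMUSG00000032021, chromosome 9, 40969691 to 41004628, minus strand) encodes the receptor for CADM1. It was measured at 40.7, 35.5, 37.7 and 32.7 CPM in spNK 1 to 4 and at 7.25, 7.62, 15.1 and 10.8 CPM in tuNK 1 to 4. Of the receptors it varied most, relative to its mean, among tuNK libraries, tuNK 3 being highest, and the groups were still apart. The log2 fold change was -1.84 ± 0.22, a 3.59-fold lower level (edgeR adjusted p = 2.90e-05), and the leukocyte-scaled value was -0.015 ± 0.30 (adjusted p = 0.964).

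T cells carry these receptors too, so T cell markers are given beside them. The list of 13 markers summed to 370 to 460 CPM in spNK and 270 to 406 CPM in tuNK. Of its tested genes 8 were lower in tuNK and 1, Thy1, was higher, beside 34% lower and 35.6% higher of all genes. Thy1 is also on the list of fibroblast and mesenchymal markers. Leukocyte-scaled, 2 of the T cell genes were lower, 5 were higher and 2 were not called, beside 5.75% lower and 78.9% higher of all genes. Cd3e, which every T cell needs for its antigen receptor, was at 0.178 to 0.572 CPM in spNK. It was at 0 counts in the 4 tuNK libraries, which allows up to 3 counts in each. Cd8b1 was also at 0 in tuNK. These were the only 2 of the 13 genes at 0 in all tuNK libraries, and the other genes of the list make up its sum of 270 to 406 CPM there. Foxp3, the defining factor of regulatory T cells, in which Tigit is high, was at 0 in all spNK libraries and at 0 to 0.285 CPM in tuNK. The regulatory T cell list as a whole rose in sum, from 50.6 to 60.8 CPM in spNK to 402 to 478 CPM in tuNK, of which 398 to 473 CPM came from Capg, an actin-capping gene of many cell types. Of its 3 tested genes 2 were higher in tuNK and 1 was lower, beside 35.6% higher and 34% lower of all genes. The part of T cell RNA in the receptor levels was not tested.

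Pvr (ENSMUSG00000040511, chromosome 7, 19903578 to 19921160, minus strand) encodes CD155, the shared ligand of TIGIT, CD96 and CD226. It stood at 3.65, 4.85, 4.47 and 6.41 CPM in spNK 1 to 4 and at 53.5, 43.1, 42.8 and 45.4 CPM in tuNK 1 to 4. All tuNK libraries were far above spNK, with tuNK 1 highest. The log2 fold change was 3.25 ± 0.18, a 9.53-fold higher level (edgeR adjusted p = 9.04e-08; leukocyte-scaled 5.03 ± 0.26).

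Cadm1 (ENSMUSG00000032076, chromosome 9, 47530173 to 47857637, plus strand) encodes the adhesion molecule that CRTAM binds. Its levels were 1.68, 2.49, 3.90 and 2.72 CPM in spNK 1 to 4 and 89.2, 64.2, 75.4 and 64.2 CPM in tuNK 1 to 4. It had the largest fold of the 6 members, 27.1-fold (log2 4.76 ± 0.24, edgeR adjusted p = 9.03e-08; leukocyte-scaled 6.53 ± 0.38). In spNK its 72 to 191 counts were few, and the transcript length implied by the ratio of counts to TPM was 1.85 times the tuNK mean in spNK 2 against 0.912 to 1.23 times in the other spNK libraries. By TPM, which corrects for that length but is not TMM-scaled, the fold was 25.1. Tigit, whose implied length hardly differed between libraries, was 3.43-fold higher with TMM and 2.87-fold in TPM. The folds of 27.1 and 25.1 therefore do not show the effect of length alone.

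**Figure D1:**
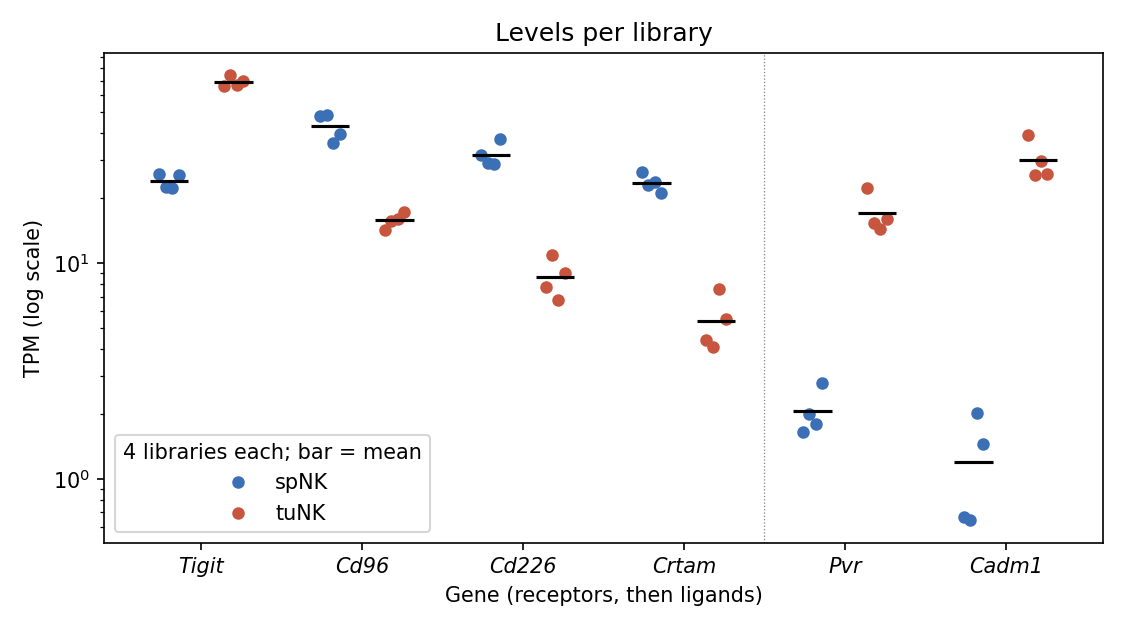
TPM (per transcript length, log axis) of each receptor gene and, right of the dotted line, each ligand gene in the 4 spNK and 4 tuNK libraries, with bars at the group means. In these TPM values Tigit, Pvr and Cadm1 lie higher in tuNK, and Cd96, Cd226 and Crtam lie lower with no overlap, an order that Cd96 reverses and Cd226 and Crtam lose when libraries are scaled to leukocyte genes.

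**Figure D2:**
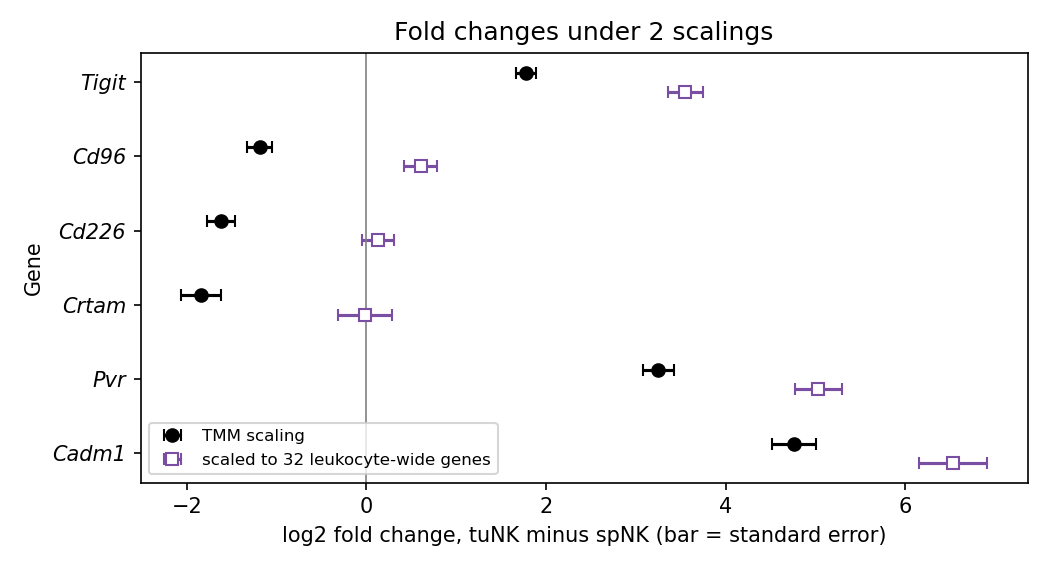
Log2 fold changes of the 6 members (tuNK minus spNK, bars are standard errors) with TMM scaling (filled circles) and with scaling to 32 leukocyte genes (open squares). Tigit moves from 1.78 to 3.55, whereas Cd96 moves from -1.19 to 0.60, and Cd226 and Crtam move to values near 0. The scaling itself raises the median of all genes by 1.78.

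Levels of different genes can be compared per length, in TPM. In spNK the order was Cd96 (43.1 ± 6.38 TPM, SD, n = 4), Cd226 (31.8 ± 4.14), Tigit (24.1 ± 1.95), Crtam (23.6 ± 2.24), Pvr (2.06 ± 0.511) and Cadm1 (1.20 ± 0.668). The ranges of Cd96 and Cd226, of Tigit and Crtam, and of Pvr and Cadm1 overlapped, so those neighbours were not separated by their spread, though Cd96 was above Cd226 within each of the 4 libraries. In tuNK the order was Tigit (69.1 ± 3.62 TPM), Cadm1 (30.0 ± 6.30), Pvr (17.0 ± 3.51), Cd96 (15.8 ± 1.23), Cd226 (8.62 ± 1.80) and Crtam (5.40 ± 1.59). There, Pvr overlapped with Cd96, and Cd226 with Crtam. Tigit thus lay below Cd96 and Cd226 and overlapped with Crtam in spNK, and lay above every other member in tuNK.

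The make-up of the receptor RNA does not depend on how libraries are scaled. Of the summed TPM of the 4 measured receptor genes, Tigit made up 18.2 to 20.7% in spNK and 68.6 to 71.5% in tuNK, a mean of 19.7 ± 1.07% against 69.9 ± 1.45% (SD, n = 4 each). The shares of the other receptors fell, from 35.1 ± 3.57 to 16.0 ± 0.996% for Cd96, from 26.0 ± 3.11 to 8.67 ± 1.43% for Cd226 and from 19.3 ± 1.88 to 5.49 ± 1.70% for Crtam. For each of the 4 shares a two-sided exact permutation test, with 70 ways to assign 8 libraries to 2 groups of 4, gave p = 0.0286, the smallest it allows (adjusted p = 0.0286 over the 4 shares, which sum to a whole and so are not independent). The TPM of Tigit was higher and those of the others lower without overlap, so for Tigit this p was fixed by those levels and adds no separate support. The shares of Cd96, Cd226 and Crtam have the TPM of Tigit in their sum and are no separate support either. The summed TPM itself was 110 to 132 in spNK and 92.9 to 105 in tuNK, or 80.8% of the spNK mean, while the summed TPM of the 32 leukocyte genes was 11218 to 14345 in spNK and 3209.7 to 4258 in tuNK.

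**Figure D3:**
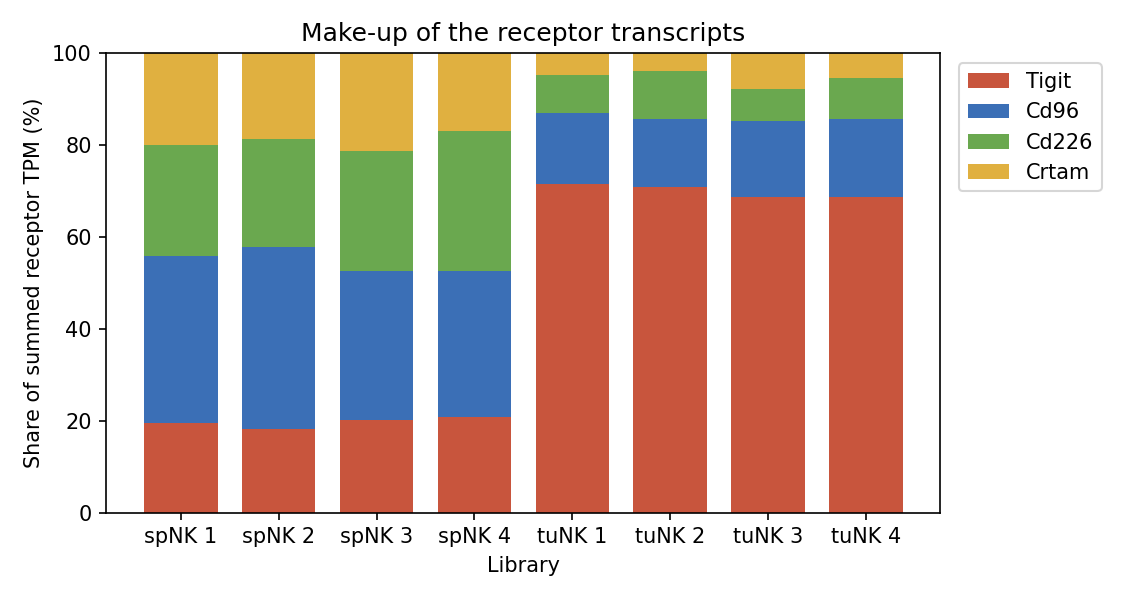
Share of each receptor gene in the summed TPM of Tigit, Cd96, Cd226 and Crtam, one bar per library. Tigit takes 18.2 to 20.7% in the spNK bars and 68.6 to 71.5% in the tuNK bars, a make-up that library scaling does not change.

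Within a library, the ratio of the inhibitory to the activating receptor gene was also compared. Tigit over Cd226 in TPM was 0.813, 0.773, 0.778 and 0.681 in spNK 1 to 4 and 8.52, 6.77, 9.84 and 7.74 in tuNK 1 to 4. All spNK ratios were below 1 and all tuNK ratios far above it, a 10.7-fold difference (log2 3.42; SD 0.11 in spNK and 0.23 in tuNK). Tigit over Cd96 ran from 0.461 to 0.649 in spNK and from 4.01 to 4.75 in tuNK, a 7.79-fold difference. For both, the two-sided exact permutation p was 0.0286, the smallest possible, and the adjusted p of 0.0571 over the 4 ratios computed did not pass the threshold. As Tigit was higher and Cd226 and Cd96 were lower in TPM without overlap, this p too was fixed by those levels.

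The receptors that were lower by TMM scaling differed less among themselves. Cd96 over Cd226 was 1.05 to 1.68 in spNK and 1.43 to 2.36 in tuNK, overlapping ranges with a log2 difference of 0.46 (exact permutation p = 0.0857, adjusted p = 0.114). Crtam over Cd226 was 0.559 to 0.832 in spNK and 0.373 to 1.12 in tuNK, a log2 difference of -0.27 (exact permutation p = 0.543, adjusted p = 0.543). In tuNK that last ratio was lowest in tuNK 2, with the most Cd226, and highest in tuNK 3, with the most Crtam.

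Other nectins and nectin-like molecules were read from a list of 8 genes, of which 7 were tested. Of these, 4 were higher in tuNK, 2 were lower and 1 was not called, with a median log2 fold change of 1.87 beside 0.019 for all genes tested. Over all genes tested the shares were 35.6% higher and 34% lower. Nectin2, which encodes CD112, the ligand of PVRIG and CD226, stood at 0.349, 0.746, 1.49 and 1.16 CPM in spNK 1 to 4 and at 34.6, 21.9, 24.9 and 30.8 CPM in tuNK 1 to 4. Low in all spNK libraries, it was 29.8-fold higher in tuNK (log2 4.90 ± 0.38, edgeR adjusted p = 1.46e-06; leukocyte-scaled 6.65). Nectin2 and Pvr lie 153 kb apart on chromosome 7, both on the minus strand.

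Afdn, which encodes afadin, the protein that ties nectins to actin, rose from 9.56 ± 1.18 to 34.9 ± 7.64 CPM (log2 1.87 ± 0.17, adjusted p = 3.09e-06). Nectin1, a ligand of CD96 in mice, was low and rose from 0.555 ± 0.540 to 2.74 ± 0.632 CPM (log2 2.30 ± 0.64, adjusted p = 0.00754; 3.20 without spNK 4, which had the most of its group). Cadm4, an adhesion molecule related to CADM1, was below 1.10 CPM in every library and higher in tuNK (log2 2.94 ± 0.84, adjusted p = 0.00842). Leukocyte-scaled, these 3 genes were higher too, which the upward shift of that scaling makes no separate check.

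The remaining nectin family genes were near the limit of detection. Nectin4, an adhesion molecule that TIGIT can bind, had 13 to 25 counts per library in spNK, 6 in tuNK 4 and 0 in the other tuNK libraries (log2 -3.35 ± 1.15, edgeR adjusted p = 0.0202). Cadm3, which is known from neurons, had 17 to 93 counts in spNK and 0 to 14 in tuNK (log2 -2.81 ± 0.96, adjusted p = 0.0213). Both calls ended with leukocyte scaling, that of Nectin4 also without tuNK 1, 2 or 3, and that of Cadm3 without spNK 2, tuNK 2 or tuNK 4. The fitted values of both rest on single libraries: without tuNK 4, the only tuNK library with counts, that of Nectin4 was -7.22, which is no bound, and without tuNK 1 that of Cadm3 was -4.14. Nectin3 had 30 to 81 counts in spNK and 0 to 27 in tuNK and was not called (log2 -1.43 ± 0.87, adjusted p = 0.164; leukocyte-scaled 0.27). Cadm2, with 0 to 10 counts per library, was not tested.

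Markers of other cells are given beside the ligand genes. Within tuNK the mesenchymal marker sum was 5018 CPM in tuNK 1 and 3314 to 3718 CPM in the others, and Pvr, Cadm1, Nectin2 and Afdn were each highest in tuNK 1. Nectin1 and Cadm4, also higher in tuNK but low, went another way. Nectin1 was lowest in tuNK 1 (2.15 CPM) and highest in tuNK 4 (3.62 CPM). Cadm4 stood at 0.725 CPM in tuNK 1 and was highest in tuNK 4 (1.10 CPM). The NK cell marker sum in CPM was lowest in that library (4505 CPM), whereas in TPM it was lowest in tuNK 3 (4959 TPM, against 5583 in tuNK 1). Epithelial tumour cell markers summed to 1.22 to 10.2 CPM in spNK and 47.8 to 69.3 CPM in tuNK, with 4 of 6 tested higher, beside 35.6% of all genes. Within tuNK that sum in CPM was lowest in tuNK 1 and highest in tuNK 4. The defining mesenchymal genes Col1a2 and Pdgfra were at 1496 to 2551 CPM and 7.08 to 17.2 CPM in tuNK, and at 0.544 to 2.37 CPM and 0 in spNK. Dendritic cells and mast cells are also known to express Cadm1. The dendritic cell list summed to 406 to 669 CPM in spNK and 106 to 130 CPM in tuNK, and the mast cell and basophil list to 9.33 to 76.2 CPM and 4.83 to 9.42 CPM. The part of RNA from any of these cells in the ligand levels was not tested. Without spNK 3 and tuNK 1, the library with the most B cell markers of its group and that with the most mesenchymal markers, 3 members were still called higher and 3 lower.

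**Figure D4:**
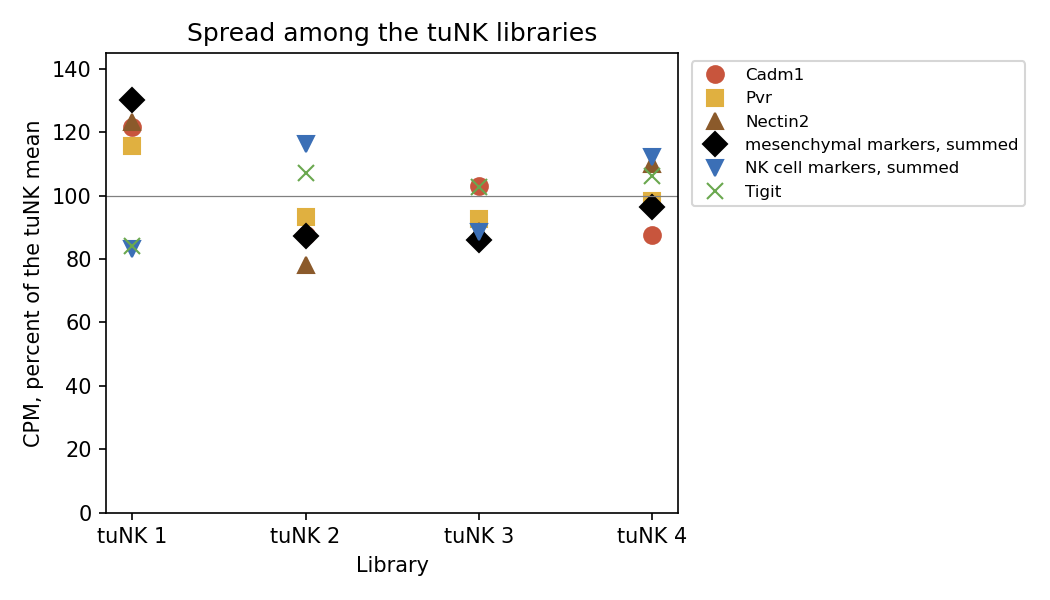
Levels in each of the 4 tuNK libraries as a percent of the tuNK mean (TMM-scaled CPM) for Cadm1, Pvr, Nectin2, Tigit and the summed mesenchymal and NK cell markers. In tuNK 1 the mesenchymal sum is at 130% and the 3 ligand genes are at 116 to 123%, while Tigit and the NK cell sum are at 84.1 and 83.2%, the latter an order that CPM shows and TPM does not. Nectin1 and Cadm4, which are low and not shown, are highest in tuNK 4.

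Signalling partners of the receptors were read from a list of 18 genes. Of these, 15 were lower in tuNK, 2 were higher and 1 was not called, with a median log2 fold change of -1.58. Among the leukocyte-wide genes 31 of 32 were lower, with a median of -1.81, and of all genes tested 34% were lower and 35.6% higher. Leukocyte-scaled, 7 partners were higher and 3 lower with a median of 0.18, beside 78.9% higher and 5.75% lower of all genes. Of the 32 leukocyte-wide genes, 8 were then higher and 6 lower, so a lower call is not particular to the partners. The 3 that were lower by both scalings were Itgb2 (log2 -3.11 ± 0.15, from 1482 ± 249 to 172 ± 26.1 CPM; leukocyte-scaled -1.32), the adaptor gene Grap2 (-3.10 ± 0.13, from 46.3 ± 4.50 to 5.39 ± 0.562 CPM; leukocyte-scaled -1.34) and the kinase gene Fyn (-2.55 ± 0.13, from 398 ± 41.8 to 68.2 ± 10.7 CPM; leukocyte-scaled -0.77). ITGB2 pairs with the product of Itgal to form LFA-1, the integrin that associates with CD226, and FYN phosphorylates the tails of CD226 and TIGIT. Itgal had a log2 fold change of -1.89 ± 0.12, with a leukocyte-scaled value of -0.12 that was not called. The edgeR adjusted p of these 4 genes ran from 1.65e-08 (Grap2) to 2.15e-07 (Itgal).

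The genes that were higher were Plcg1, a phospholipase of many cell types, and Scrib, a polarity protein that binds the CRTAM tail. Plcg1 rose from 5.24 ± 1.26 to 24.9 ± 3.18 CPM and Scrib from 39.4 ± 7.23 to 58.3 ± 4.40 CPM, both named after their values were seen. Ptpn11, which encodes the phosphatase SHP-2, had 109 ± 11.1 and 116 ± 8.59 CPM and was not called.

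**Figure D5:**
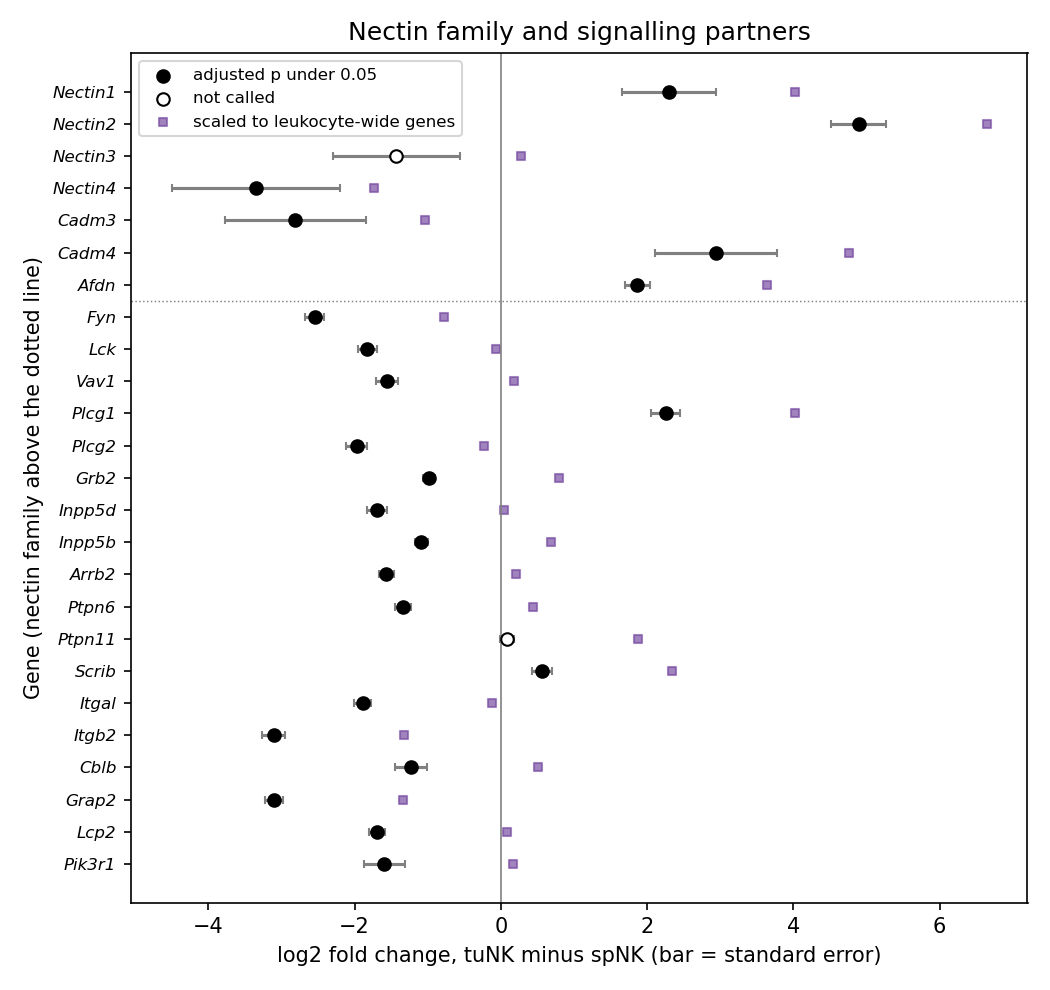
Log2 fold changes (tuNK minus spNK, bars are standard errors) of 7 nectin family genes and 18 signalling partners with TMM scaling (circles, filled where called) and scaled to leukocyte genes (squares). With TMM scaling 15 of the 18 partners lie below 0 and called, whereas leukocyte-scaled only Itgb2, Grap2 and Fyn are called lower. Of all genes tested, 34% are called lower with TMM scaling and 5.75% leukocyte-scaled. Of the 32 leukocyte-wide genes, 31 are called lower with TMM scaling and 6 leukocyte-scaled.

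Another set of checkpoint genes, PD-1, CTLA-4, LAG-3 and TIM-3 with their ligands, is given for comparison, and a difference from the nectin receptors was not tested. Of 9 genes tested, 4 were higher, 2 lower and 3 not called, and their median was 1.10 on the log2 scale. Over all genes tested 35.6% were higher and 34% lower. After leukocyte scaling 7 of the 9 were higher, 0 lower and 2 not called, and the median was 2.70. That count is near the share of all genes called higher by this scaling, 78.9% (5.75% lower, median 1.80). The 4 with the smallest adjusted p were Pdcd1lg2 (log2 2.79), Cd80 (4.78), Lgals9 (-0.79, leukocyte-scaled 0.99 and called higher) and Ctla4 (7.93; 12.37 without spNK 1, where all other spNK libraries are at 0 and the fitted value is no bound). Ctla4 stood at 15.0 ± 8.04 CPM in tuNK, against 56.4 ± 6.10 CPM of Tigit, and had counts, 11 in all, in 1 of the 4 spNK libraries.

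For each member the 3 genes with the nearest pattern were found over the 8 libraries, as the smallest root mean square difference of log2(CPM + 0.5) centred on each gene, among 11358 genes. These distances are descriptions, and the difference between groups dominates them. For Tigit they were Vat1 (0.087), Lgals1 (0.12) and Hcfc1r1 (0.12). Lgals1 encodes galectin-1 and rose from 1231 ± 95.7 to 3865 ± 365 CPM. For Cd96 they were Uhmk1 (0.079), Sat1 (0.089) and Zfp143 (0.091), and for Cd226 Aldh4a1 (0.10), Ifi47 (0.10) and Il12rb2 (0.11), all 6 of them lower with TMM scaling and above 0 leukocyte-scaled. Il12rb2 encodes a chain of the interleukin 12 receptor and changed from 112 ± 13.8 to 40.4 ± 9.14 CPM. The genes named for Crtam were farther off, Ptprk at 0.18 and Snrpn at 0.21. Ptprk and Snrpn were low, at 4.06 and 1.76 CPM in spNK, and 5.87-fold and 7.06-fold lower in tuNK, against 3.59-fold for Crtam.

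For Pvr, Thrb (0.072) and Gsn (0.13) are named. Thrb was at 0.360 CPM in spNK and 19.3-fold higher in tuNK, against 9.53-fold for Pvr. At such low levels the 0.5 added before the log makes the pattern flatter than the fold. Gsn encodes the actin-binding protein gelsolin and stood at 260.0 ± 37.8 CPM in tuNK. For Cadm1 they were Sec1 (0.21), Nectin2 (0.21) and App (0.21), so that another ligand gene of the family was among the 3 nearest of all genes compared. Sec1 was likewise low in spNK, at 0.103 CPM, and 119-fold higher in tuNK, against 27.1-fold for Cadm1.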

How the data were processed

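Total RNA of sorted NK cells was sequenced as polyadenylated, directional libraries of paired reads, per the labels' protocols. Per the submitters' processing notes, FastQC 0.11.9, STAR and Salmon were used with GRCm38 (mm10); for the annotation release, the strand setting and the STAR and Salmon versions, the sources used here give nothing. The authors deposited estimated counts (expected counts, not normalised; 7.9 to 8.82% of values per library not whole). The authors also deposited TPM, which are scaled by transcript length and library total and sum to 1e+06 in each deposited column. Columns were matched to samples by title, and 0 were left over. Gene positions are those of GENCODE M21.

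Estimated counts were rounded. Genes were kept with filterByExpr and tested with edgeR 4.0.16 (TMM, quasi-likelihood F test, robust). This test was also run on simulated data in which few genes changed, in random directions. Those data do not probe TMM scaling where most genes differ, as here. Ratios and shares used two-sided exact permutation tests. The members and lists were chosen with earlier results of these data known. Of 209 list entries, 207 matched, 7 of them by identifier. A ratio of Pvrig to Tigit could not be computed, and shares are over 4 receptors. Named were all members and nectin genes, the 4 genes of the other lists with the smallest adjusted p, and the 3 nearest patterns per member, of which 2 genes are not reported here. Alternatives were other scalings, filters and tests (DESeq2 1.42.0, limma 3.58.1 with voom or on log2 TPM), the replicate number as a block, leaving out libraries, and, chosen after seeing the data, leaving out spNK 3 and tuNK 1 together. Replicate numbers were not used to pair the libraries in the main test, and whether they mark pairs is not settled by the correlations given below.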

Additional observations from a re-analysis of the deposited data

Results flagged for a closer look

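In a search of 42 sets of 4 libraries for a single value far from the other 3, of which chance marks about 1 in 20, 2 values stood apart. The log2 ratio of Crtam to Cd226 was -0.84 in spNK 4 and -0.33 to -0.27 in the other spNK libraries. Nectin4 was at 0.153 CPM in tuNK 4 and at 0 in the other tuNK libraries. The search marks such a set whatever its single value above 0, so the rate of about 1 in 20 does not hold for it.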

How the results depend on the processing

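Over the 19 alternatives other than leukocyte scaling, every one of the 6 members kept its direction and its call, with log2 fold changes of 1.49 to 1.84 for Tigit, -1.43 to -1.11 for Cd96, -1.88 to -1.54 for Cd226, -2.14 to -1.71 for Crtam, 2.55 to 3.40 for Pvr and 3.85 to 4.98 for Cadm1. Scaled to leukocyte genes, 11057 genes were called higher and 806 lower, 0 members were lower, and the values were 0.60 for Cd96, 0.12 for Cd226 and -0.015 for Crtam. Other named genes reported here that changed sign there and were called by either scaling were Lgals9 (0.99), Uhmk1 (0.58), Sat1 (0.49), Zfp143 (0.57), Aldh4a1 (0.020), Ifi47 (0.25) and Il12rb2 (0.28), and Nectin3 (0.27) changed sign without a call by either. The scaling itself adds 1.78 to the median, which accounts for these shifts. The same scaling gave 0 lower nectin family genes, 7 higher and 3 lower signalling partners, and 7 higher and 0 lower checkpoint genes.

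Lower nectin family genes, 2 at first, numbered 1 with no filter, 0 with a filter at 1 CPM (3 genes tested), 0 on log2(TPM + 1), 1 on log2(TPM + 0.1), 1 on log2(TPM + 1) with every gene above 0 kept, 1 without spNK 3 and tuNK 1, and 0 to 2 with 1 library left out. Higher signalling partners numbered 1 on each of the 3 TPM scales. Lower checkpoint genes numbered 1 with every gene above 0 kept on the log2(TPM + 1) scale and 1 without spNK 3 and tuNK 1, and 1 to 2 with 1 library left out (1 without spNK 3 or spNK 4). Except for the leukocyte scaling and the smaller number of genes tested, the cause was not tested.

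With the replicate number as a block, 9555 genes were called against 9744, all 6 members stayed called (Tigit at 1.77), and same-numbered libraries had correlations of -0.0076 to 0.034 in their deviations from the group means, with 2 of 4 spNK and 3 of 4 tuNK libraries correlating best with their own number. For the ratios the exact sign-flip permutation test over 4 pairs cannot go below p = 0.125. Genes at few counts, such as Nectin4, Cadm2 and Cadm3, are limited by depth.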
